A study of Rattus norvegicus with 15 samples.

Results

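Cytosolic ribosomal protein genes were read as one set in RNA sequencing counts from the rat brain. Members were the RefSeq transcript records whose rat symbol starts with Rpl or Rps and a digit, together with Rplp0, Rplp1, Rplp2 and Rpsa; the ribosomal S6 kinase genes, whose symbols start the same way, were left out. The rule took 91 records of 88 symbols out of 18278 records, and no measured value entered it. Of the 91, 3 were records of pseudogenes (Rps2-ps44, Rps4x-ps1 and Rps7-ps20) and the others carried names of ribosomal proteins or of their paralogs. In the hippocampus 6 of the 91 had a count of 0 in every library.

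The cytosolic ribosome joins a small subunit, which decodes the message, with a large subunit, which forms the peptide bond. Each subunit holds ribosomal RNA and a fixed set of ribosomal proteins, named Rps in the small and Rpl in the large subunit, and most of these proteins are needed in equal numbers. In vertebrates the mRNAs of these proteins begin with a C followed by a run of pyrimidines, the terminal oligopyrimidine (TOP) motif, through which the mTOR pathway and the binding protein Larp1 set their translation, and in neurons ribosomal protein mRNAs are also found in axons and dendrites.

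The study stimulated the vagus nerve, which links the viscera with the brainstem, through an implanted device for 30 min a day over 4 days (VNS), and its controls carried a sham device (the sources used here name no strain, age or sex). All rats were killed directly after the last session. The hippocampal rats, 4 VNS and 3 control libraries of total RNA depleted of ribosomal RNA, had also done a 10 min novelty preference task from day 2 to day 4. The cortical rats gave 4 VNS and 4 control libraries of polyA RNA. Nothing in the labels ties libraries to litters or shared animals, so p-values measure the spread between these libraries. In tissue RNA, fewer cells of a type and less RNA per cell cannot be told apart.

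The region around the RefSeq transcription start shows what the members have in common at sequence level. For 69 of the 88 symbols RefSeq's GRCr8 table held a promoter (70 promoters), and the 30 bases centred on the start were read on the coding strand, with the longest run of C and T (at least 5 bases) in capitals. The first 3 windows belong to the members with the smallest hippocampal p, the next 5 to members of high level per length, Rpl13a and Rps2 are shown as 2 further members named below, and Rpl41, the highest per length, has no such run.
Rpl35: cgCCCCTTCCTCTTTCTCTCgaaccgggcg
Rpl5: aCTCTCTTTCCCacgtcgcttgcgtcctgg
Rps15: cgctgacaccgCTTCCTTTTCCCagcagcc
Rplp0: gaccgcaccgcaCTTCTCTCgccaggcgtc
Rplp1: gcaggcgcatgtgaTCCTTTCCTCagctgc
Rpl29: gggCCTTTCTCTTTCTCTTCCggtcccagg
Rpl3: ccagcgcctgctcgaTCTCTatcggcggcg
Rps6: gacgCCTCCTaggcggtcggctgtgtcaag
Rpl13a: CCTCTTCCTTTCCTaggcggctgccgaaga
Rps2: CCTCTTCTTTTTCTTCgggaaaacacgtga
Rpl41: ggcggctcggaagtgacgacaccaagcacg

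These windows lie in GRCr8 at chr3:43165907-43165936 for Rpl35 (minus strand), chr14:1995211-1995240 for Rpl5 (minus), chr7:10068101-10068130 for Rps15 (minus), chr12:46718376-46718405 for Rplp0 (minus) and chr8:71290858-71290887 for Rplp1 (minus). Those of Rpl29, Rpl3 and Rps6 lie at chr8:115947628-115947657 (plus), chr7:113507976-113508005 (minus) and chr5:106420526-106420555 (minus). Those of Rpl13a, Rps2 and Rpl41 lie at chr1:104748899-104748928 (minus), chr10:14251833-14251862 (plus) and chr7:1563483-1563512 (minus). A pyrimidine run of 8 or more bases stood on the coding strand in 43 of the 70 member windows (61.4%), against 11.4% of all 33469 promoter windows of the same length. On the other strand it stood in 1.43% of member windows and 13.0% of all windows, so among the members the run was one-sided. The letters CTTTCC or CTCTTT, which can overlap each other, stood on the coding strand in 27 member windows (38.6%), against 2.24% of all windows; CTTTCC stood on the other strand in 1 member window and CTCTTT in 0. The longest run was 18 bases in Rpl35 and Rpl29, 12 in Rps15, 11 in Rpl5 and 3 in Rpl41. A match describes letters near an annotated start, and no match says only that they are not in this window.

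Hippocampal libraries held 16728486 to 51463555 counts and cortical libraries 329130 to 435296. Ribosomal RNA records took 7.11% to 19.3% of the hippocampal counts in controls and 9.34% to 73.1% after VNS, and they were removed with the 7SL RNA record before scaling. The hippocampal libraries labelled control 1 and 2 stood apart in region markers. The summed level of 7 forebrain excitatory neuron markers was 394.9, 14.3 and 2353 CPM in controls 1 to 3, and 2109 to 3339 CPM after VNS, with 7 of 7 markers higher after VNS and Slc17a7 at 6.58 CPM in control 2. For 6 thalamus and brainstem markers it was 2040, 638.4 and 84.6 CPM in controls and 34.0 to 201.2 CPM after VNS, with 6 of 6 lower; Gbx2 and Barhl2 were at 0 in control 3 and in VNS libraries 3 and 4. The summed level of 8 oligodendrocyte genes was 6769 to 12153 CPM in controls and 3216 to 7621 CPM after VNS, with 8 of 8 lower, and Mobp at 374.8 to 1294 CPM over the libraries. In cortex 7 forebrain excitatory markers summed to 542.7 to 927.1 CPM in every library. The part of region markers in the ribosomal protein values was not tested, and values without controls 1 and 2 stand beside the described members of smallest p and beside Rplp0, Rplp1, Rps6, Rpsa and Rpl29.

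Ribosomal protein records held a small share of the counts in all libraries. Of the counts left after removal of ribosomal and 7SL RNA, members took 0.143%, 0.169% and 0.178% in hippocampal controls 1 to 3, and 0.186%, 0.159%, 0.125% and 0.175% in VNS libraries 1 to 4. The groups overlapped, and the VNS mean was 0.987 of the control mean. The widest 95% Wilson interval was that of VNS library 3 (0.122% to 0.128%) and covers counting error only. In VNS library 3 a single record lying beside ribosomal RNA records, NM_001025002, took 27.5% of the remaining counts, against 0.185% to 0.4997% in the other 6. Without that record the share in VNS library 3 was 0.172%, within the range of the controls. The VNS mean was then 1.06 of the control mean, and 1.08 with the 100 most abundant other records left out instead. In cortex the shares were 0.142%, 0.199%, 0.170% and 0.197% in controls and 0.160%, 0.217%, 0.154% and 0.185% after VNS. Those groups overlapped too, with a widest interval of 0.202% to 0.233% in VNS library 2. Cortical reads were counted with another strand option (described below). The cortical shares are therefore given as counted and are not the same measure as the hippocampal ones.

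**Figure D1:**
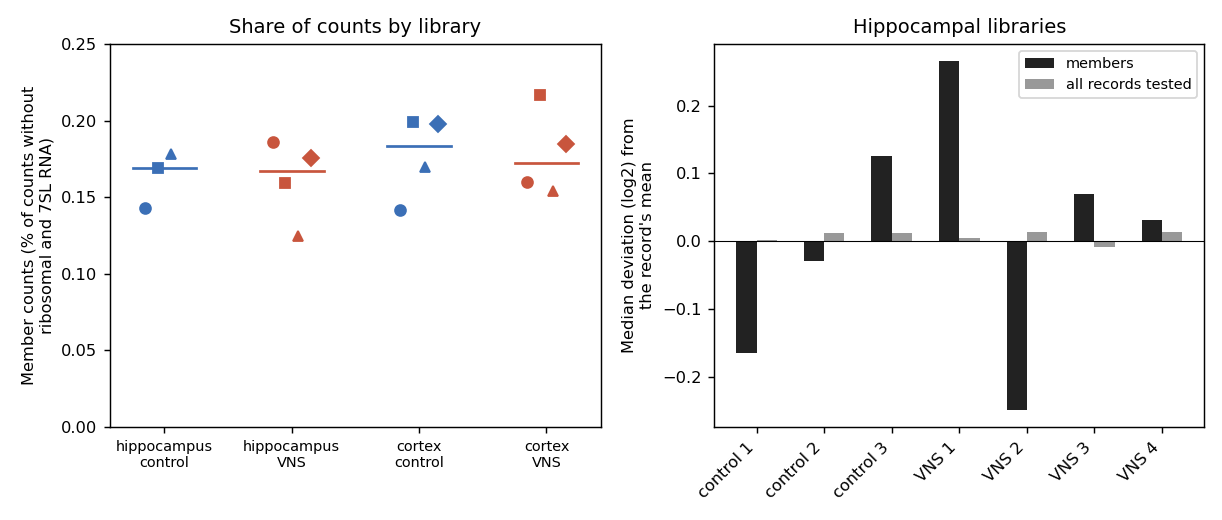
Left, member counts as a percentage of counts without ribosomal and 7SL RNA, one symbol a library (circle, square, triangle and diamond for libraries 1 to 4) with the group median as a line. The VNS and control points overlap in both tissues. Right, the median over members (black) and over all tested records (grey) of each hippocampal library's deviation from the record's mean log2 CPM; member medians run from -0.25 in VNS library 2 to 0.27 in VNS library 1.

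Within the hippocampus the members differed widely in level per length. In RPKM, which divides the scaled count by the record's exon length, their median was 9.16 and the highest value, that of Rpl41, was 226, which is 24.7 times the median. There were 11 members above 50 RPKM and 48 below 10 RPKM, and the 10 members with most counts held 55.7% of the 289313 member counts. Mitochondrial ribosomal protein records had a median of 16.4 RPKM, elongation factors 32.4, initiation factors 28.5 and respiratory chain subunits 39.1. These medians run over every record of a list, which for the members includes 6 with no count and 3 of pseudogenes. The median longest exon was 196 bases in members and 486, 447, 580.5 and 235 bases in these lists, in the same order. Whether exon length bore on the difference in level was not tested. Transcripts for proteins of 1 complex thus stood at very different levels in these counts.

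The 5 highest members per length were all of the large subunit. Rpl41, the smallest ribosomal protein, stood at 225.9 ± 57.2 RPKM (SD, n = 7). Rpl29 stood at 221.1 ± 40.7, Rplp1 at 177.9 ± 28.1, Rplp0 at 120.7 ± 11.9 and Rpl3, a protein near the peptidyl transferase centre, at 102.9 ± 15.5 RPKM. The ranges of mean ± SD overlapped for Rpl41 and Rpl29 and did not overlap for Rplp1 and Rplp0. These SDs describe the spread between libraries only, and differences in level between members were not tested. At the other end of the tested members were Rpl3l, a striated muscle paralog of Rpl3, at 0.29 ± 0.26 RPKM and the single-exon record Rps12l4 at 0.38 ± 0.21 RPKM. Rps4x-ps1 stood at 0.40 ± 0.28, Rpl7a at 0.98 ± 0.33 and Rpl35a at 1.23 ± 1.66 RPKM. The record of Rpl7a has 2 placements in rn5, as do those of Rplp2, Rps19 and Rpl8. A read that fits both has no single position there. Their lengths add up the exons of both placements, so their RPKM does not stand on the same footing as that of other members.

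Member levels were set beside record structure. Member records were short, with a median of 630 bases against 1884 over all records, and cut into short exons: the longest exon was under 200 bases in 49 of 91 (53.8%), against 6.41% of all records. Among the 77 members with counts of their own (1 placement, no same-strand overlap, no pseudogene name), the median level was 6.81 RPKM in the 18 whose longest exon was at most 150 bases and 11.5 RPKM in the 27 from there to 200 bases. It was 21.8 RPKM in the 16 up to 300 bases, 38.1 RPKM in the 11 up to 500 bases and 6.63 RPKM in the 5 with longer exons. Medians also rose with the longest exon over other records above 0. In the same order of exon length they were 0.83, 5.90, 6.39, 6.82 and 8.85 RPKM. Spearman's rho between longest exon and RPKM was 0.29 across the 77 members, which share their libraries and are not independent replicates. A group of exons over 500 bases rests on 5 genes, among them the single-exon Rps12l4 and Rps4y2. Copies named after a member in the RefSeq table (pseudogenes and numbered l forms) existed for 69 of the 77, with a median of 13 and up to 36 for Rps2, and rho between copy number and RPKM was 0.20. Whether reads were lost at exon junctions or to copies was not tested, and a single member's level is therefore uncertain.

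**Figure D2:**
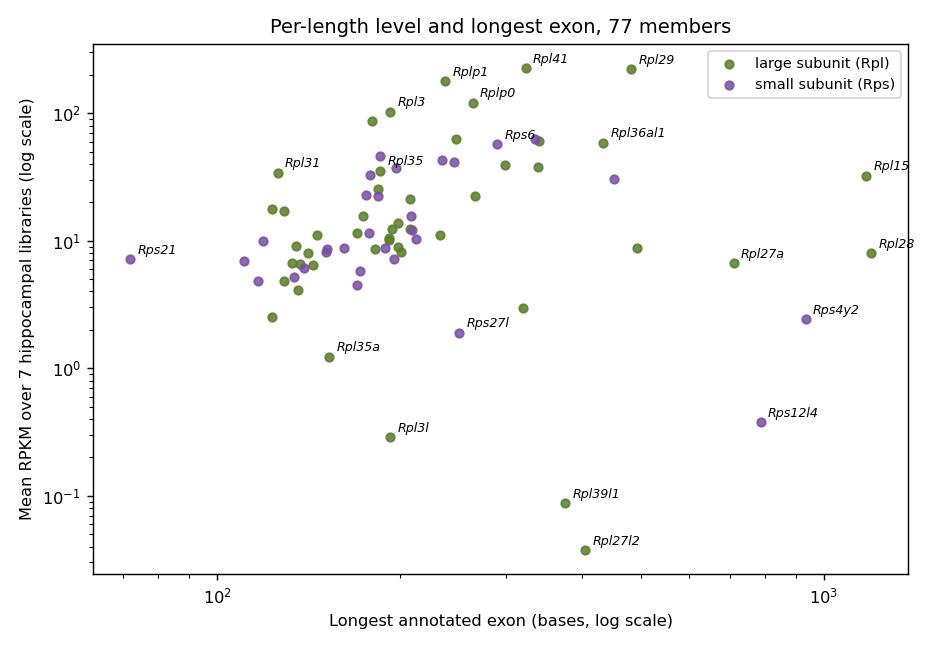
Mean RPKM over the 7 hippocampal libraries against the longest annotated exon in bases, both on log axes, one point for each of 77 members (green large subunit, purple small subunit). Rpl41, Rpl29, Rplp1 and Rplp0 lie at the top with longest exons of 238 to 482 bases, and the 18 members with longest exons of at most 150 bases have a median of 6.81 RPKM.

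The hippocampal comparison asked whether ribosomal protein transcripts differed between VNS and sham rats. No member passed the test: 0 of 82 tested members and 0 of 12810 tested records (0.0%) had an adjusted p under 0.05 (edgeR quasi-likelihood test, Benjamini-Hochberg over all records; smallest adjusted p = 0.407), and DESeq2 called 17 records, of which 0 were members. At an unadjusted p under 0.05 stood 6 of 82 members (background 11.9% of all records), of which 4 were higher after VNS (background 4.6%) and 2 lower (background 7.35%). The members leaned to higher values after VNS, with 56 above and 26 below a log2 fold change of 0 and a median of 0.15, against 49.0% of records above 0 and a median of -0.01 over all records. The median was 0.01 without controls 1 and 2 (44 of 83 above 0) and -0.05 without VNS library 1 (34 of 80 above 0), so it shrank or changed sign when those libraries were left out. Most member values were small: 67 of 82 lay within 0.5 of 0 on the log2 scale.

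Rpl35, a large subunit protein beside the exit of the nascent peptide tunnel, had the smallest p of the members. Its CPM, read counts scaled to a common effective library size, was 8.19, 9.72 and 10.6 in controls 1 to 3 and 23.4, 12.2, 31.9 and 14.9 in VNS libraries 1 to 4. All 4 VNS libraries lay above all 3 controls, with VNS 1 and 3 well above VNS 2 and 4. The log2 fold change was 1.09 (SE 0.33; adjusted p = 0.407) and 0.91 without controls 1 and 2. In rn5 the record, NM_212511, runs over 4 exons from 28516639 to 28519600 on chromosome 3.

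Rpl5, which carries the 5S ribosomal RNA into the large subunit together with Rpl11, was at 30.0, 32.7 and 36.5 CPM in controls and at 44.9, 38.7, 54.7 and 47.3 CPM after VNS. The groups did not overlap, and control 3 and VNS 2 were neighbours at the boundary. The log2 fold change was 0.48 (SE 0.15; adjusted p = 0.407), and 0.33 without controls 1 and 2. Rps15, a protein of the head of the small subunit, was at 17.2, 16.7 and 18.1 CPM in controls and at 25.1, 19.02, 27.7 and 25.5 CPM after VNS. The 3 controls lay close together and all 4 VNS libraries were higher, VNS 2 least so. Its log2 fold change was 0.49 (SE 0.16; adjusted p = 0.407), and 0.42 without controls 1 and 2. The records are NM_031099 on chromosome 14 (2861180 to 2867612) and NM_017151 on chromosome 7 (12451929 to 12453368) in rn5.

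Groups that did not overlap were found for 6 members higher after VNS (background 4.4%) and 1 lower (background 4.81%). Among the higher ones were Rpl35, Rpl5, Rps15, Rpl27a and Rpsa. Rpl27a, a large subunit protein, was at 5.46, 4.77 and 7.16 CPM in controls and at 8.33, 7.87, 7.81 and 7.68 CPM after VNS. Its VNS libraries lay close together and just above control 3, and the log2 fold change was 0.45 (SE 0.22). It was 0.15 without controls 1 and 2. Rpsa, a small subunit protein also known as the laminin receptor, was at 36.2, 42.6 and 41.1 CPM in controls and at 44.9, 42.9, 44.6 and 43.9 CPM after VNS. The VNS libraries began only just above control 2, at a log2 fold change of 0.14 (SE 0.12). It was 0.075 without control 1 and 0.10 without controls 1 and 2.

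Rps4x-ps1, a single-exon pseudogene copy of Rps4x, was the 1 member lower after VNS in every library. It was at 1.04, 0.58 and 0.94 CPM in controls and at 0.10, 0.16, 0.33 and 0.48 CPM after VNS. The groups did not overlap, at levels near the lower end of what was tested. The log2 fold change was -1.75 (SE 0.66; adjusted p = 0.407), and -1.88 without controls 1 and 2. For its parent Rps4x, of the small subunit, the value was 0.39 (SE 0.42), and since copy and parent can share reads both values are uncertain.

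Other members among the 10 smallest p overlapped between groups. Rpl41 was at 69.1, 75.5 and 95.1 CPM in controls and at 105.1, 92.3, 133.4 and 133.3 CPM after VNS. Only VNS 2 lay below the highest control. The log2 fold change was 0.54 (SE 0.19; adjusted p = 0.407), and 0.28 without controls 1 and 2. Rpl13a, a large subunit protein also known for translational control after interferon signalling, was at 10.3, 17.2 and 13.9 CPM in controls and at 9.74, 8.26, 10.4 and 10.7 CPM after VNS. Control 1 fell among the VNS libraries, and the log2 fold change was -0.50 (SE 0.21; adjusted p = 0.407). It was -0.32 without control 2 and -0.52 without controls 1 and 2. Rpl13 had a log2 fold change of 0.90 (SE 0.43) with VNS library 3 at 13.7 CPM and the other 6 libraries at 3.09 to 8.32 CPM. It was 0.58 without VNS library 3, 0.55 without controls 1 and 2, and 0.26 without all 3. For Rps2, which lines the path by which mRNA enters the small subunit, the value was 0.34 (SE 0.16), 0.54 without control 3 and 0.01 without controls 1 and 2.

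**Figure D3:**
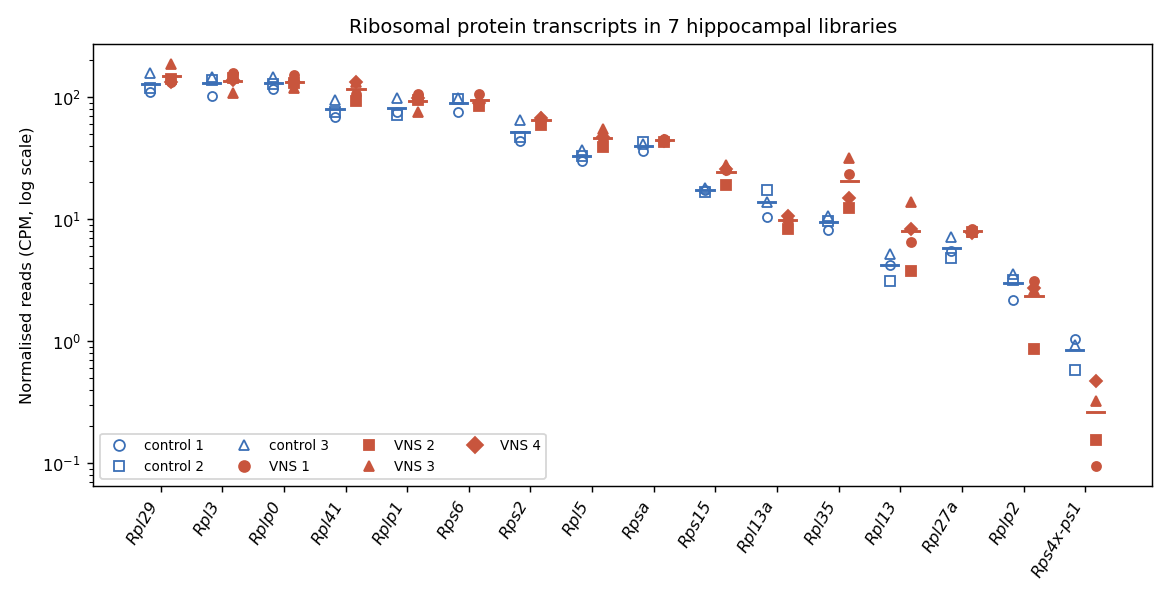
CPM (log axis) of 16 named members in the 7 hippocampal libraries, controls in open blue and VNS in filled red symbols, with the mean of each group as a line. Rpl35, Rpl5, Rps15, Rpl27a and Rpsa have all VNS points above all control points, Rps4x-ps1 has them below, and the other members drawn overlap.

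The ribosomal stalk, which recruits elongation factors, is built on Rplp0 with pairs of Rplp1 and Rplp2. Rplp0 was at 116.4, 127.7 and 146.8 CPM in controls and at 150.2, 130.3, 117.8 and 133.3 CPM after VNS. The groups covered almost the same range, at a log2 fold change of 0.03 (SE 0.14) that was -0.14 without controls 1 and 2. Rplp1 was at 75.6, 71.0 and 98.7 CPM in controls and at 105.4, 94.3, 74.9 and 97.8 CPM after VNS. These overlapped too, at 0.19 (SE 0.17); the value was 0.10 without control 2, 0.35 without control 3 and -0.08 without controls 1 and 2. Rplp2 was at 2.18, 3.17 and 3.58 CPM in controls and at 3.09, 0.86, 2.60 and 2.73 CPM after VNS, at -0.35 (SE 0.45). Its record stood at 3.04 RPKM, below its 2 partners. The 856 bases of that record add up the exons of 2 placements, so its level cannot be set against theirs on the same footing.

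Rps6, the small subunit protein that S6 kinases phosphorylate when mTOR signals, was at 75.9, 95.8 and 97.4 CPM in controls. After VNS it was at 104.9, 84.7, 95.7 and 89.6 CPM. The groups overlapped, at a log2 fold change of 0.06 (SE 0.14), and -0.06 without controls 1 and 2. Among the other abundant members, Rpl29 had a value of 0.20 (SE 0.19), and Rpl3 one of 0.08 (SE 0.18). That of Rpl29 was 0.074 without VNS library 3, 0.096 without control 1, 0.37 without control 3 and -0.10 without controls 1 and 2. The SE of 0.14 for both Rplp0 and Rps6 was below the median of 0.33 over members and of 0.23 over all records, so their differences were bounded more closely than those of most members.

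Several vertebrate ribosomal proteins have paralogs, and these were set beside their parent genes. Rpl22l1 stood at 11.2 RPKM and its parent Rpl22, which binds RNA and can repress the paralog, at 13.7 RPKM. Their log2 fold changes were 0.43 (SE 0.27) for Rpl22 and -0.20 (SE 0.29) for Rpl22l1. Rps27l, a target of p53, stood at 1.91 RPKM and Rps27 at 6.97 RPKM, with values of -0.0037 (SE 0.58) and 0.29 (SE 0.45). Rpl36al1 stood at 58.7 RPKM, above its parent Rpl36a at 2.94 RPKM, and their log2 fold changes were 0.18 (SE 0.18) and -0.68 (SE 0.44). No paralog or parent passed the test, and the difference between copy and parent was not tested.

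The other paralogs had few counts or low levels per length. Rpl3l had 66 counts over 7 libraries and 0 in VNS library 3, where a count of 0 allows up to 0.697 CPM (3 counts). Its log2 fold change was 1.14 (SE 0.83), the largest of the members and among the least precise. Rpl39l1 had 7 counts and Rpl27l2 had 3, against 10.2 RPKM for the parent Rpl39 and 11.5 RPKM for Rpl27. The log2 fold change of Rps12l4 was 0.37 (SE 0.66), and that of Rps12, at 4.84 RPKM, was -0.27 (SE 0.35). Rpl37l1 stood at 4.14 RPKM with a value of -0.03 (SE 0.55). Of the 9 members not tested, 6 had a count of 0 in the hippocampus (among them both Rps27a records, 2 of Rps9 and Rpl37a), and each of the 6 overlaps another record on its strand; the other 3 were Rpl27l2, Rpl39l1 and Rps7-ps20 with 30 counts.

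Over the 82 tested members log2 fold changes ran from -1.75 (Rps4x-ps1) to 1.14 (Rpl3l). Beyond 1 in size were 4, the other 2 being Rpl35 and Rpl24, a large subunit protein named after its value was seen, at 1.03 (SE 0.53). Large subunit members had a median of 0.19 (36 of 48 above 0) and small subunit members one of 0.06 (20 of 34 above 0); the difference between subunits was not tested. Short records in general leaned slightly the same way: the 1166 other records under 1000 bases had a median of 0.05, with 54.5% above 0, against 0.14 and 43 of 67 for members of that length. Among records of 1000 to 3000 bases the median was -0.02 for 7683 others and 0.26 for 15 members, of which 13 lay above 0.

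**Figure D4:**
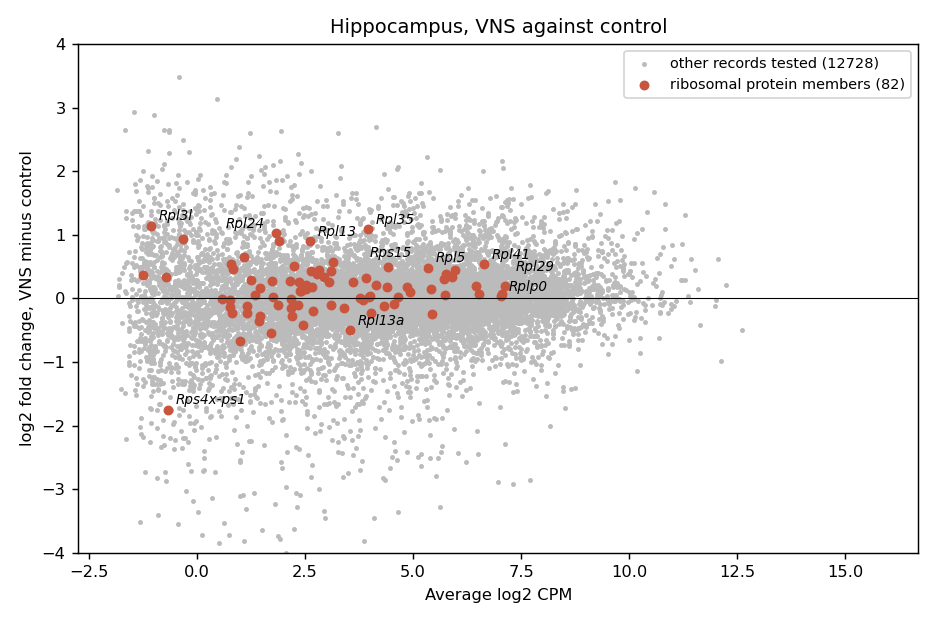
Log2 fold change of VNS against control in the hippocampus over average log2 CPM, for 82 members (red) and 12728 other tested records (grey; 27 others beyond 4 in size are not drawn). The members lie mostly between -0.5 and 0.5 within the cloud of other records, with Rpl3l, Rpl35 and Rpl24 above 1 and Rps4x-ps1 below -1.

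The median member differed between libraries of 1 group. Relative to each record's mean, the median member stood at -0.16, -0.03 and 0.13 (log2) in controls 1 to 3 and at 0.27, -0.25, 0.07 and 0.03 in VNS libraries 1 to 4. The medians over all records, which the scaling holds near 0, lay between -0.01 and 0.01. Some related lists had smaller deviations of the same sign in control 1, VNS 1 and VNS 2. They were -0.11, 0.10 and -0.06 for initiation factors and -0.13, 0.10 and -0.05 for ribosome biogenesis factors. For other genes known for TOP mRNAs they were -0.11, 0.12 and -0.07. The mTOR pathway and S6 kinase list had the opposite signs, at 0.06, -0.18 and 0.07. Respiratory chain subunits differed in sign in control 1 (0.05) and mitochondrial ribosomal proteins in VNS 1 (-0.02). Nor did the likeness of the first lists hold in every library. Ribosome biogenesis factors were at -0.07 in control 3 and at 0.23 in VNS 3, and other TOP genes at 0.14 in VNS 3, beyond the members there. Of the 82 members, 39 were highest in VNS library 1, 22 in VNS library 3, and 2, 2 and 8 in controls 1 to 3. The lowest value fell in VNS library 2 for 32 members, in control 1 for 20 and in VNS library 3 for 13. The spread between VNS libraries 1 and 2 was thus wider than the difference between the groups.

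Genes that work beside the ribosome were read from lists, and 0 members of any list passed in either direction. Ribosome biogenesis factors, which assemble the subunits, were the list nearest to the members, with 31 of 41 above 0 and a median of 0.16; Bop1, a factor of large subunit assembly, had 0.50 (SE 0.14) and Polr1d, a subunit of RNA polymerases I and III, 0.54 (SE 0.17). Initiation factors had 25 of 40 above 0 (median 0.07), with Eif4g2 at -0.34 (SE 0.14) and Eif4enif1 at 0.29 (SE 0.12). Elongation factors had 7 of 10 above 0 (median 0.06), with Eif5a2 at -0.80 (SE 0.25) and Eif5a at 0.36 (SE 0.17). Other genes known for TOP mRNAs had 10 of 17 above 0 (median 0.02). Among them was Tpt1, which encodes an abundant growth-related protein, at 0.59 (SE 0.28).

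The mTOR pathway and S6 kinase list had 8 of 17 above 0 (median -0.01), with the kinase Rps6ka1 at -0.78 (SE 0.31) and the mTORC1 inhibitor Akt1s1 at 0.49 (SE 0.22). Mitochondrial ribosomal proteins, which build a separate ribosome inside mitochondria, had 37 of 65 above 0 (median 0.05), with Mrpl50 at -0.68 (SE 0.26) and Mrps14 at -0.30 (SE 0.12). Respiratory chain subunits, also short and abundant, had 40 of 76 above 0 (median 0.01), with Atp5me at 0.78 (SE 0.21). That list was taken by symbol, and so held Atp5if1, an inhibitor of ATP synthase and not a subunit, at 1.41 (SE 0.41). The differences between lists were not tested.

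The records most like a member across the 7 libraries were sought for Rplp0 and Rps6 by Pearson's r of log2 CPM, as a description. For Rplp0 they were Dpm1 (0.99), Poc5 (0.98), Hikeshi (0.96), Ros1 (0.96) and Marchf6 (0.96), and the nearest members were Rps3 (0.95), Rpl3 (0.91) and Rps23 (0.88). For Rps6 they were Nt5c3a (0.96), Blvra (0.96), the record NM_001287624 (0.96), Exoc6b (0.95) and Gemin6 (0.95), and the nearest members were Rps24 (0.86), Rps16 (0.83) and Rpl6 (0.82). The median r to other members was 0.40 for Rplp0 and 0.50 for Rps6, against 0.03 and 0.01 over all tested records. These points share 7 libraries, their depth and their scaling.

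In the cortex the same comparison found no member that passed. Of 19 members tested, 0 had an adjusted p under 0.05, against 1 of 3881 records (0.0258%), and 0 had an unadjusted p under 0.05, against 2.37% of records (1.16% higher and 1.21% lower; edgeR quasi-likelihood test; members' smallest unadjusted p = 0.26, adjusted p = 0.9997). Groups that did not overlap were found for 0 members in either direction, against 1.26% of records higher and 1.03% lower. Values above 0 were found for 10 and below 0 for 9, between -0.49 and 0.53, with a median of 0.05 and a median SE of 0.46. The counts behind them were few: 5322 in all members and libraries, 40 members with fewer than 20 counts and 11 with 0, where 3 counts amount to 6.90 to 9.13 CPM. The file header gives strand option 1, under which the first read counts for the strand it matches, whereas the kit named in the labels yields first reads from the strand opposite the transcript. A cortical value is therefore given as counted, and not as a measure of the gene it is named for.

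Rplp0 had the smallest cortical p, at 68.9, 42.6, 38.4 and 26.3 CPM in controls and 40.4, 89.3, 59.3 and 55.1 CPM after VNS. The groups overlapped, at a log2 fold change of 0.47 (SE 0.41). Rpl7, of the large subunit, had 0.53 (SE 0.46), Rps15 had -0.49 (SE 0.46) and Rpl5 had 0.31 (SE 0.33). Single libraries moved these values: Rplp0 was 0.25 without VNS library 2, 0.30 without control 4 and 0.78 without control 1. Rpl7 was 0.29 without control 3 and 0.82 without control 1, and Rps15 was -0.21 without control 4. Rps15 and Rpl5, both among the smallest p in the hippocampus, thus had opposite signs here, each within about 1 SE of 0. Signs were alike in both tissues for 9 of the 19, and a difference between tissues in the response to VNS was not tested.

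The members with most cortical counts were not those of the hippocampus. Rps6 had 621 counts and Rpl36 had 484, and Rpl5 and Rpl41 were also among the 5 highest. Rps6 was at 229.7, 187.0, 269.1 and 154.9 CPM in controls and at 152.4, 288.9, 234.5 and 281.0 CPM after VNS, which overlapped (0.19, SE 0.26; 0.076 without control 4 to 0.36 without VNS library 1). Per length Rpl36 stood at 484.7 ± 133.4 RPKM in cortex (SD, n = 8) and 9.16 ± 2.13 in the hippocampus (n = 7). Rpl29, second in the hippocampus, stood at 26.3 ± 23.1 RPKM in cortex against 221.1. The tissues differ in RNA selection and in strand counting, so the tissue cannot be told apart from the library type here.

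**Figure D5:**
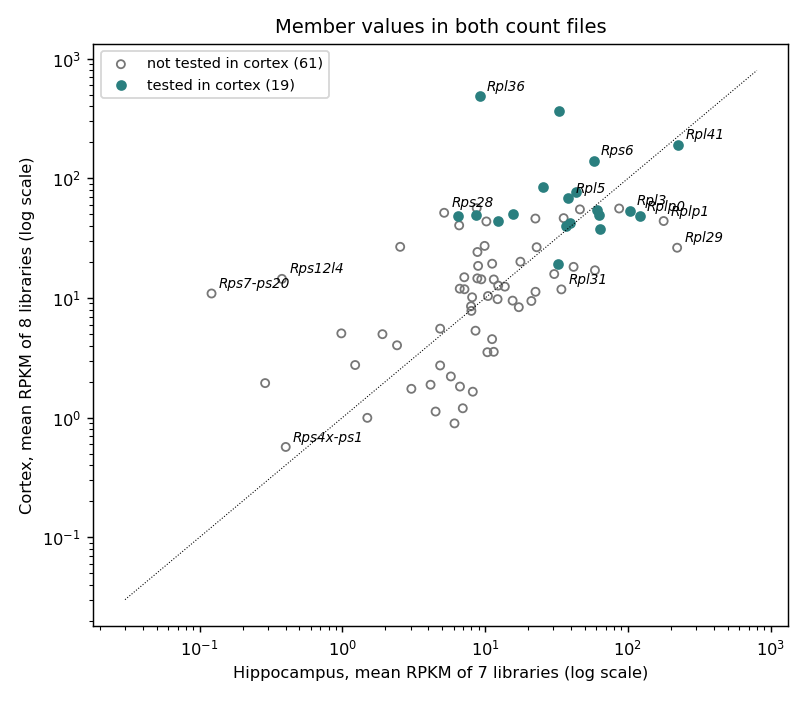
Mean RPKM of each member in cortex (8 libraries) against hippocampus (7 libraries) on log axes, for 80 members above 0 in both, with those tested in cortex filled (19) and the line of equal values dotted. Rpl36 lies far above the line, Rpl29 and Rplp1 below it, and 44 of the 80 lie above it.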

How the data were processed

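Per the file headers, the authors counted reads over RefSeq transcript records with featureCounts 1.4.6-p2, using strand option 1 for cortex and none for hippocampus, and deposited the raw counts. Bowtie2, Trimmomatic, Subread, edgeR, SAMtools 0.1.19, FastQC 0.10.1 and build rn5 are named in the submitters' processing notes; per the labels' protocols the kit was a stranded TruSeq one with 100 bp paired reads. The sources used here do not give the aligner's settings. Symbols came from a RefSeq table of GRCr8 (17339 of 18278 records; 939 had none), and promoter sequences from RefSeq on the same build.

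Ribosomal RNA and 7SL RNA records were removed. Counts were filtered with filterByExpr (minimum count 10, minimum total 15), scaled by TMM and tested within each tissue with glmQLFit and glmQLFTest (two-sided) in edgeR 4.0.16 (R 4.3.3), with Benjamini-Hochberg adjustment over all records and a threshold of 0.05. CPM and RPKM use the TMM-scaled library sizes; deviations and likeness use log2(CPM + 0.5). Library replicates are numbered in accession order. No libraries were duplicates (smallest chi-square per degree of freedom 18.6 in hippocampus, 3.42 in cortex). In simulated hippocampal counts (12669 records) 31% of 2-fold and 82.3% of 4-fold changes were recovered, and in cortex (3532 records) 41.2% and 97.5%. These counts were drawn independently between libraries, with the spread typical of each record's level and without the marker differences of hippocampal controls 1 and 2. They cover all records and not the members alone, whose median hippocampal SE was 0.33 against 0.23 over all records.

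The members, lists, rules for named genes and alternatives were chosen with earlier results of these data known. Named were the 10 members with the smallest p in hippocampus and 4 in cortex, the 5 highest and 5 lowest per length, the 5 with most cortical counts, the stalk proteins, paralogs with their parents, Rps6, Rpsa and 2 genes of each list with the smallest p; some of these are not reported here. Alternatives were DESeq2 1.42.0 and its size factors, limma-voom (limma 3.58.1), no filter, ribosomal and 7SL RNA kept, counts summed per symbol, leaving out each library, and leaving out hippocampal controls 1 and 2. Added after seeing these files were leaving out record NM_001025002, VNS library 3 with controls 1 and 2, and cortical records overlapping an opposite strand. One cortical column name differed from its sample's label by a final letter.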

Additional observations from a re-analysis of the deposited data

How the results depend on the processing

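No member was called under any of 16 hippocampal or 15 cortical alternatives. Hippocampal fits without controls 1 and 2 kept control 3 as the only control, so only their effect sizes are read. The count of all hippocampal records called was 17 with DESeq2 and 0 to 1368 when leaving out each library (1368 without control 3), with 0 members among them. The members' median log2 fold change was -0.054 (without VNS library 1) to 0.25 when leaving out each library. At an unadjusted p under 0.05 stood 3 (without control 2) to 9 members when leaving out each library. Signs changed for Rplp0 and Rps6 without control 1 (-0.044 and -0.043) and without VNS library 1 (-0.039 and -0.0011; leave-one-out ranges -0.044 to 0.13 and -0.043 to 0.13). Without controls 1 and 2 they changed for Rplp0 (-0.14), Rplp1 (-0.080), Rps6 (-0.057) and Rpl29 (-0.099). With VNS library 3 left out as well they changed for Rps2 (-0.012), Rplp0 (-0.085), Rps6 (-0.059) and Rpl29 (-0.22). The hippocampal share ratio of 0.987 was 0.76 with ribosomal and 7SL RNA kept in the total, where ribosomal RNA alone took up to 73.1% of a library. That ratio was 1.06 without record NM_001025002 and 1.08 without the 100 most abundant other records. Cortical records called, 1 in the fit reported, were 2 with DESeq2 size factors, 5 with no filter, 2 without records overlapping an opposite strand and 0 to 4 when leaving out each library (4 without control 1; 0 without control 2, 3 or 4 or VNS library 1 or 4). The cause of these changes was not tested. No paired analysis was possible because the labels give the libraries no replicate numbers. In cortex 72 members had too few counts to be tested.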
